A study of Mus musculus with 6 samples.

Results

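The intraflagellar transport and BBSome genes form a set of 36 genes that encode the particles, motors and cargo adaptors which carry proteins along the microtubules of cilia and flagella. Members were taken by name, from the known composition of these complexes. The choice was made with earlier results of these data known. Of the 36 genes, 29 had probe sets under their symbol or an older name, among 15792 genes with a value on the arrays. Rabl5 (now Ift22) kept its older symbol on the array, and Ift46 was listed there as a clone name. The other 7, Ttc21b and Wdr35 of IFT-A, Traf3ip1 of IFT-B, the dynein heavy chain Dync2h1, the BBSome subunit Bbs1, and Bbs10 and Arl6, were not analysed here.

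Testis RNA of male mice was hybridised to exon arrays, with 3 arrays of wild-type mice (WT) and 3 of mice with a knockout (KO) of Ttll5, a gene also called Stamp. All mice shared a mixed background of C57BL/6, 129/SvEv and FVB/N, and the cohorts were littermates matched for age and sex. The design text of the series states 3 biological replicates in each group. The labels do not say how old the mice were, how the KO allele was made or whether an array held 1 animal or a pool. The p-values thus measure the spread between these arrays. Values are log2 probe set signals as deposited, and a gene's value is the mean over its probe sets. Every difference is KO minus WT on that log2 scale.

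Intraflagellar transport (IFT) moves trains of protein along the doublet microtubules below the membrane of a growing cilium. The IFT-B complex, with a core (here IFT-B1) and a peripheral part (IFT-B2), binds the heterotrimeric kinesin that pulls trains to the tip, and IFT-A serves the return trip, which a dedicated cytoplasmic dynein drives. The BBSome is a coat-like complex that rides on the trains and links membrane proteins to them, and chaperonin-like proteins help to assemble it. In the testis these proteins serve spermatids while the sperm tail is built, and mutations of several of them in mice give short or malformed tails. The kinesin and the trains run on tubulin that enzymes of the Ttll family, Ttll5 among them, can modify with glutamate.

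Ttll5 itself stood at 11.16, 11.14 and 11.16 in WT and at 9.58, 9.49 and 9.53 in KO, a fall of 3.07-fold that matches the labels (limma adjusted p = 4.3e-05). Array medians ran from 6.72 to 6.77 and lower quartiles from 4.59 to 4.67. Markers of germ cells were present on all arrays, with a mean level of 12.53 to 12.66 for 7 genes of elongating spermatids and 11.69 to 11.81 for 6 of round spermatids. The means of the 5 epididymal markers over the 6 arrays lay below the highest of the lower quartiles, as did that of 1 of 3 genes of multiciliated duct epithelium, Dnah5. Of the epididymal ones Lcn5, at 4.42 to 4.77, was above the lower quartile of its own array on the 3 WT arrays and KO 3.

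Promoter sequence gave a feature that the choice of members had not used. Genes of cilia are often controlled by RFX transcription factors, which bind the X-box, a pair of inverted arms. RefSeq promoters (GRCm38.p6), running from 250 bases before to 50 after the annotated start, were held for 31 of the 36 members. The arm GTTGCC, searched on both strands, occurred in 12 of the 31 (38.7%) and in 14.1% of all 27025 genes with a promoter, non-coding genes included. The fuller pattern, which is this arm, any 2 bases and then GGNAAC, was found in Ttc26 and Bbs7, 2 of 31 (6.45%) against 0.355% of all genes. The cyclic AMP response element TGACGTCA, the site of the spermatid regulator CREM, was found in 2 of 31 members (6.45%) against 2.03%. A match of letters is a description and not a shown binding site, and base composition was not matched.

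The lines below show 4 of the matches that lie upstream of the start in measured members, 5′ to 3′ on the promoter's strand. They were printed because they match, and most members with a promoter had no arm. Capitals mark the fuller pattern in Ttc26 and Bbs7 and the arm in the others, which in Ift140 is read on the opposite strand.
Ttc26: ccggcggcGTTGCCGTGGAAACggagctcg
Bbs7: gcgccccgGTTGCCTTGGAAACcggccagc
Ift140: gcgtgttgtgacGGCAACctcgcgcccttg
Kif3a: caccccgcaggcGTTGCCccagtctagcgt
These windows lie on GRCm38.p6 at chr6:38381483-38381512 (+) for Ttc26, chr3:36613489-36613518 (-) for Bbs7, chr17:25015965-25015994 (+) for Ift140 and chr11:53567259-53567288 (+) for Kif3a. Counted from the annotated start, their matches begin at -33, -121, -109 and -98.

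Among the 24 measured members with a promoter, the 8 with an arm had a median difference of -0.056 (-0.11 to 0.061) and the 16 without had -0.0028.

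None of the 29 genes passed the test. In limma, 0 had an adjusted p under 0.05, where 0.0697% of all genes did, and 0 had an unadjusted p under 0.05, where 6.05% did. Differences ran from -0.11 for Bbs5 to 0.23 for Ttc30b, with a median of -0.016 over the 29 and -0.0026 over all 15792 genes. Values were lower in KO for 18 members (62.1%, against 51.1% of all genes) and higher for 11, and the sign of the members' median turned with cyclic loess normalization (0.021), with a term for the 3 arrays of highest lower quartile (0.0038), without KO 2 (0.0013) and without WT 2 (0.0049). The 2 groups of arrays did not overlap in 2 members (6.90%), both lower in KO, against 11.2% of all genes (6.67% lower and 4.53% higher in KO). Since these are whole testes, a change in the number of cells of a type and a change in RNA per cell cannot be told apart.

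The precision of these differences is what limits them. The median standard error of a member was 0.080, and that of all genes 0.088. For 28 of the 29 genes the 95% interval of limma lay between 1.5-fold lower and 1.5-fold higher, which held for 14955 of all 15792 genes. Among these 28 the interval of Bbs12, measured by 2 probe sets, reached 1.27-fold higher. That of Ttc30b reached from 0.598 to 2.30 times the WT level, and so included a doubling. Each interval is for a single gene, and a mean over probe sets understates a change that only some probe sets report.

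**Figure D1:**
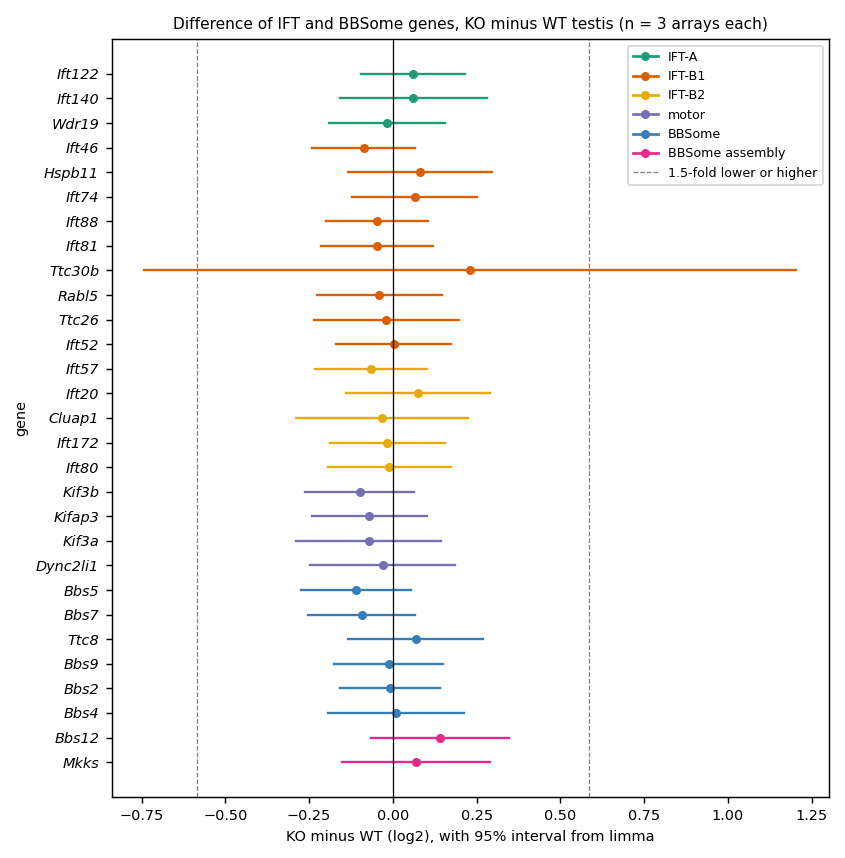
Difference between KO and WT (log2, horizontal axis) for each of the 29 measured genes, with the 95% interval from limma as a line and colours for the 6 classes; dashed lines mark 1.5-fold. Points lie between -0.11 and 0.23, all 29 intervals cross 0, and only that of Ttc30b crosses a dashed line.

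Members also varied little between arrays within a group. The median within-group SD was 0.087 for members and 0.11 for all genes, and the median range over the 6 arrays was 0.20 and 0.29. The means of 26 members lay above every array's median, 3 (Hspb11, Bbs12 and Mkks) lay between the lower quartiles and the medians, and 0 lay below. The spread of members was not compared with that of genes of like signal or like number of probe sets. A gene's value is a mean over its probe sets, of which the 29 members had 508 and all 15792 genes 179163. Averaged over the 29 genes, the level was 9.41, 9.49 and 9.39 in WT, against 9.43, 9.45 and 9.42 in KO, so the KO arrays lay inside the WT range. That range is widened by Ttc30b, at 7.05, 7.95 and 6.21 in WT, which was also highest on WT 2 and lowest on WT 3.

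IFT-A was measured by 3 of its genes. Ift122, a subunit of the core, stood at 10.76, 10.77 and 10.79 in WT and at 10.87, 10.76 and 10.87 in KO. Its difference was 0.060 (SE 0.068, adjusted p = 0.96), with KO 2 level with the WT arrays and the other KO arrays above them. Ift140, also of the core, differed by 0.061 (SE 0.096) and Wdr19, the subunit known as Ift144, by -0.017 (SE 0.076). The groups overlapped in all 3. Of 30 probe sets of Ift122, 24 had higher values in KO, and the largest difference was 0.26. In 3 of the 30 every KO array lay above every WT array, which held for 4.97% of all probe sets. The class median was 0.060, and -0.0029 without KO 1.

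The core of IFT-B was represented by 9 genes with a median of -0.020, 5 with lower and 4 with higher values in KO. The sign of that median turned with cyclic loess (0.0087), the median of probe sets (0.015), the quartile term (0.011) and without WT 2 (0.0049). Ift46, which helps to carry outer arm dynein into flagella, was the one whose groups did not overlap. It stood at 10.78, 10.84 and 10.86 in WT and at 10.71, 10.77 and 10.74 in KO, a difference of -0.088 (SE 0.066, adjusted p = 0.92). Its highest KO array thus lay just below its lowest WT array. Of its 14 probe sets 13 had lower values in KO, although with the median of the probe sets in place of the mean the difference was 0.021.

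Hspb11, a small subunit known as Ift25 that pairs with Ift27, stood at 6.26, 6.09 and 5.95 in WT and at 6.24, 6.11 and 6.20 in KO. The difference of 0.081 (SE 0.093) lay within a WT spread of 0.16 (SD), and 3 of its 7 probe sets had 6-array means below the highest of the lower quartiles. Ift88, the subunit whose partial loss shortens mouse cilia, differed by -0.047 (SE 0.067). Ift81, which forms a tubulin-binding module with Ift74, differed by -0.047 (SE 0.072). Rabl5, a small GTPase of the complex, differed by -0.040 (SE 0.081), Ttc26 by -0.020 (SE 0.095) and Ift52, a core scaffold subunit, by 0.0024 (SE 0.075).

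Ift74, the partner of Ift81, stood at 10.20, 10.24 and 10.25 in WT and at 10.31, 10.41 and 10.16 in KO. Its difference of 0.066 (SE 0.081, adjusted p = 0.97) came with 14 of 20 probe sets lower and 6 higher in KO. The gene mean therefore combined 2 kinds of probe set. In 4 of them the range over the 6 arrays was above 1, and their mean was 7.60, 7.77 and 7.47 in WT, against 9.01, 9.02 and 7.37 in KO. KO 1 and KO 2 were high and KO 3 was below all WT arrays. Probe set 4552894 showed it most, with WT arrays at 6.91, 7.68 and 6.57 and KO arrays at 9.84, 10.33 and 6.52. Its difference of 1.84 had an SE of 0.93 (adjusted p = 0.95), because the KO arrays differed among themselves by more than the groups did. Probe sets 5342194 (11.20, 11.23 and 9.72 in KO) and 5375681 (7.57, 7.67 and 6.53) gave the same order, against 10.02 to 10.38 and 6.704 to 6.96 in WT. The fourth, 5205807, was higher in all KO arrays, with 7.42, 6.85 and 6.72 against 6.11 to 6.42. The mean of the other 16 was 10.84, 10.85 and 10.94 in WT, against 10.64, 10.75 and 10.86 in KO, and without the 4 the gene differed by -0.13 (SE 0.080, adjusted p = 0.88). That subset was chosen after its values were seen, so both values are descriptions of how the gene mean depends on its probe sets.

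Ttc30b, a tetratricopeptide subunit of the core measured by 2 probe sets, had the widest spread of all members. It stood at 7.05, 7.95 and 6.21 in WT and at 6.89, 7.94 and 7.08 in KO, and the 0.23 between the groups (SE 0.42, adjusted p = 0.98) lay within a WT SD of 0.87. WT 2 and KO 2 were high, and WT 3 was low. Both probe sets gave this order of extremes, with 7.95 and 7.95 on WT 2, 8.001 and 7.87 on KO 2, and 6.25 and 6.17 on WT 3. Without WT 3 the difference was -0.20 and without KO 2 it was -0.086, so its sign rested on single arrays. Its close relative Ttc30a1, with 5 probe sets and no member here, did not follow it, with 6.58 on WT 2, 6.40 on KO 2 and 6.85 on WT 3. Such relatives can share probe sequence, and which probes they share was not tested.

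**Figure D2:**
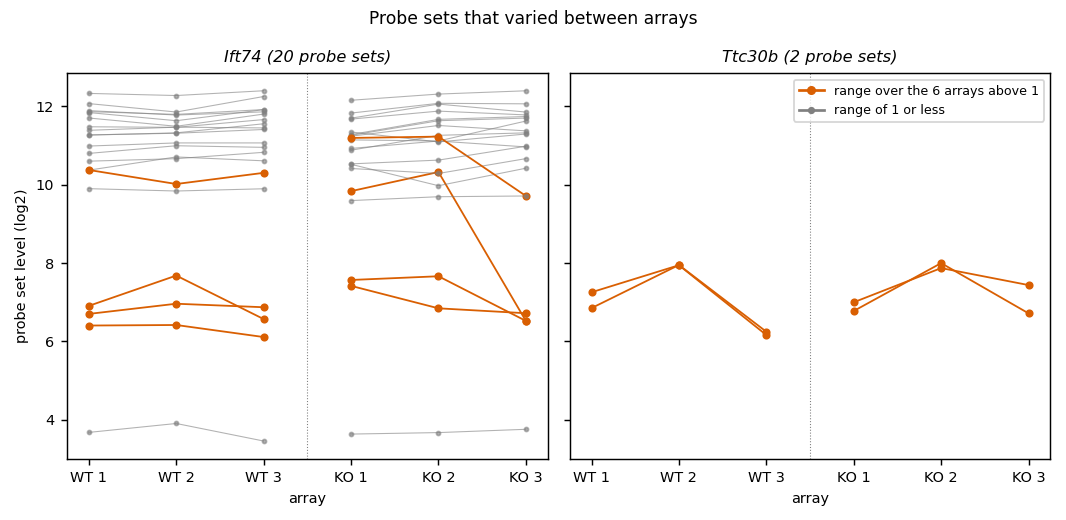
Level (log2, vertical axis) of every probe set of Ift74 (20) and Ttc30b (2) on each of the 6 arrays, with lines joining arrays of 1 group only to guide the eye. In orange, with a range above 1, 3 of 4 probe sets of Ift74 are high on KO 1 and KO 2 and not on KO 3, and both of Ttc30b are high on WT 2 and KO 2 and low on WT 3.

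The peripheral part of IFT-B was measured by 5 genes, with a median of -0.016. It was above 0 with cyclic loess (0.021), the quartile term (0.021), the median of probe sets (0.0081) and without KO 2 (0.0013), KO 3 (0.012) or WT 2 (0.0074). Ift57, which contacts the kinesin, stood at 10.44, 10.48 and 10.40 in WT and at 10.30, 10.46 and 10.36 in KO, a difference of -0.066 (SE 0.072, adjusted p = 0.95). The groups overlapped through KO 2. Ift20, the subunit also found at the Golgi and needed for the sperm tail, stood at 10.88, 10.82 and 10.60 in WT and at 10.85, 10.92 and 10.76 in KO, a difference of 0.075 (SE 0.093). Without WT 3, its lowest array, the difference was -0.010. Cluap1 differed by -0.033 (SE 0.11), Ift172, the largest subunit, by -0.016 (SE 0.074) and Ift80 by -0.010 (SE 0.080). The 50 probe sets of Ift172 divided into 25 lower and 25 higher in KO, between -0.27 and 0.22.

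The motors were the class whose measured genes all had lower values in KO. The median of the 4 genes was -0.071. It was below 0 in each of 18 alternative settings, from -0.033 with cyclic loess to -0.091 without WT 1. Some of the 18 left it unchanged at -0.071 and are not separate checks of its sign. These were no moderation, trended and robust moderation, the replicate block, and dim genes, dim probe sets or members on chromosomes 9 and 12 left out. Averaged over the 4, the level was 9.83, 9.95 and 9.87 in WT, against 9.84, 9.81 and 9.79 in KO, so KO 1 lay just above WT 1 and the groups overlapped. None of the 4 had an unadjusted limma p under 0.05, and a score over chosen genes was given no test.

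Kif3b, a motor subunit of the heterotrimeric kinesin, stood at 9.87, 9.96 and 10.01 in WT and at 9.85, 9.81 and 9.88 in KO, a difference of -0.098 (SE 0.071, adjusted p = 0.91). KO 3 lay above WT 1 and the other KO arrays below all WT arrays. Kifap3, the accessory subunit that links this kinesin to cargo, stood at 11.55, 11.61 and 11.66 in WT and at 11.50, 11.47 and 11.63 in KO, with a difference of -0.070 (SE 0.074). KO 3 lay above WT 2, and the other KO arrays below all WT arrays. Its 24 probe sets all had lower values in KO, by -0.0030 to -0.26. In 2 of the 24 the groups did not overlap, and 5.27% of all probe sets were apart and lower in KO. Probe sets of 1 gene share the same 6 arrays and are not separate evidence. Kif3a, the other motor subunit, stood at 9.47, 9.57 and 9.43 in WT and at 9.58, 9.39 and 9.28 in KO (-0.072, SE 0.094), with KO 1 the highest of the 6. Dync2li1, the light intermediate chain of the return motor, differed by -0.030 (SE 0.094), and by 0.046 without WT 2. Over the class, 60 of 75 probe sets (80.0%) were lower in KO, where 50% of all probe sets with a gene were.

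BBSome subunits were measured by 6 genes with a median of -0.010 (0.026 after cyclic loess, 0.0018 after quantile normalization and 0.012 without KO 2). Bbs5, which binds phosphoinositides, stood at 11.37, 11.50 and 11.50 in WT and at 11.32, 11.36 and 11.37 in KO. Its difference of -0.11 was the lowest of all members (SE 0.071, adjusted p = 0.89), and KO 3 just reached WT 1. Bbs7, a propeller-domain subunit, stood at 9.88, 9.94 and 9.95 in WT and at 9.76, 9.87 and 9.85 in KO, a difference of -0.094 (SE 0.069, adjusted p = 0.91). The gap between its groups was small, between 9.87 on KO 2 and 9.88 on WT 1. Of its 22 probe sets 19 were lower in KO.

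Ttc8, the subunit known as Bbs8, stood at 7.24, 7.37 and 7.09 in WT and at 7.35, 7.31 and 7.25 in KO (0.068, SE 0.088), and all KO arrays lay inside the WT range. With the median of its probe sets the difference was -0.054, and without WT 3 it was -0.0055. Bbs9 differed by -0.012 (SE 0.071), Bbs2 by -0.0080 (SE 0.065) and Bbs4, which binds pericentriolar material, by 0.0090 (SE 0.088). Bbs2 was the steadiest member, with 9.23 to 9.30 over all 6 arrays. Without the subunits on chromosomes 9 and 12, which leaves Bbs2, Bbs5 and Bbs7, the class median was -0.094.

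Among the genes that assist the BBSome, 2 chaperonin-like ones were measured, and both had higher values in KO. Averaged over the 2, the level was 5.68, 5.65 and 5.61 in WT, against 5.70, 5.835 and 5.72 in KO. All KO arrays thus lay above all WT arrays in this mean, which was given no test. The gap was small, between 5.68 on WT 1 and 5.70 on KO 1, and each of the 2 genes overlapped on its own. Of all single genes 4.53% were apart and higher in KO, and a share for means of 2 genes was not counted. In the means of the other classes the groups overlapped. Bbs12 stood at 5.48, 5.36 and 5.55 in WT and at 5.46, 5.69 and 5.66 in KO (0.14, SE 0.089, adjusted p = 0.89), with KO 1 inside the WT range. Without KO 1 its difference was 0.21 (limma adjusted p = 0.725), with an unadjusted p under 0.05. Mkks, also known as Bbs6, stood at 5.88, 5.94 and 5.67 in WT and at 5.95, 5.98 and 5.78 in KO (0.070, SE 0.096), and WT 3 and KO 3 were its low arrays. Its difference was -0.00024 with dim probe sets left out and -0.0098 without WT 3. Both genes had low signal, with the 6-array means of 1 of 2 probe sets of Bbs12 and 3 of 12 of Mkks below the highest of the lower quartiles.

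**Figure D3:**
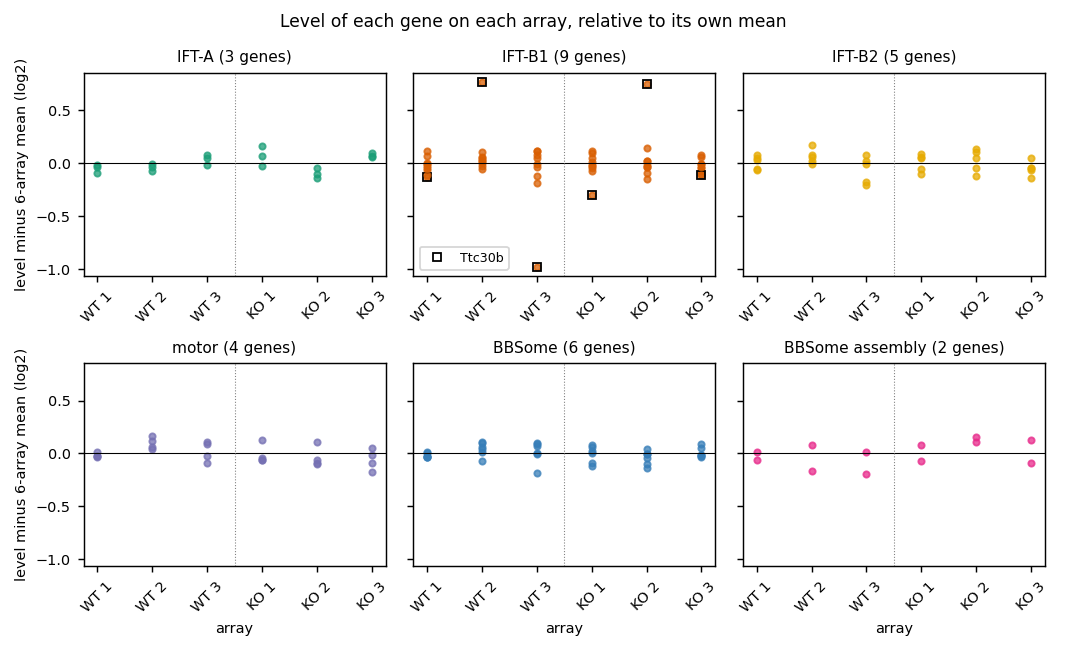
Level of each gene on each of the 6 arrays minus its own mean over them (log2, vertical axis), in a panel for each class; open squares mark Ttc30b. Apart from Ttc30b, which is high on WT 2 and KO 2 and low on WT 3, points stay within a narrow band on every array. The points of single genes on WT and KO arrays overlap in every panel. The means of the 2 assembly genes do not, by a small gap.

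The classes were compared by their medians, as a description. These ran from -0.071 (motors) through -0.020 (IFT-B core), -0.016 (peripheral IFT-B) and -0.010 (BBSome) to 0.060 (IFT-A) and 0.11 (assembly genes). Each rests on 2 to 9 genes whose single standard errors were 0.065 to 0.42, so the medians of neighbouring classes lay closer together than the error of a typical member.

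Single probe sets were tested as well, since a gene mean can hide a part of a transcript that differs. The 29 genes held 508 probe sets, of which 0 passed (limma adjusted p under 0.05), where 0.0382% of all 188590 did. At an unadjusted p under 0.05 there were 6 (1.18%), against 5.36% of all probe sets. That count of 6 was 17 without WT 1, 11 without KO 3, 10 without KO 2, 23 with no moderation and 15 with trended and robust moderation. The share over all probe sets was not counted in these settings. The groups did not overlap in 40 (7.87%, 23 lower and 17 higher in KO), against 10.2% of all (5.27% lower and 4.97% higher). Differences above 0.5 in size were found in 5 of the 508 (0.984%, against 3.90% of probe sets with a gene), and a range over the arrays above 1 in 27 (5.31%, against 13.0%). Probe sets of members were brighter than most: 479 of the 508 passed a filter on mean signal that kept 113154 of all 188590. Shares among probe sets of like signal were not counted.

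Of the 6 probe sets, 5 had higher values in KO. In Bbs4, on chromosome 9, probe set 4976173 stood at 6.29, 6.16 and 6.38 in WT and at 7.10, 6.64 and 6.75 in KO, a difference of 0.55 (SE 0.15, adjusted p = 0.86) against a median of -0.030 for the other probe sets of the gene. The probe set of Ift74 given above as 5205807 differed by 0.68 (SE 0.20, adjusted p = 0.87). The remaining higher ones were 4813368 of Ift81 (0.33), 5249735 of Bbs9 (0.32) and 4497540 of Kif3a (0.30). In each of these 5 the KO arrays lay above all WT arrays. The lower one, 5273900 of Kif3b, stood at 9.78, 9.78 and 9.96 in WT and at 9.55, 9.59 and 9.10 in KO (-0.43, SE 0.16, adjusted p = 0.90). The median of the other probe sets of each gene lay between -0.12 and -0.016. Single ones among them differed in the same direction by 0.31 or more in size, such as 4802976 of Kif3b (-0.49), 4996229 of Bbs4 (0.31) and the 3 of Ift74 given above. Others of that size went the opposite way, such as 5201085 of Kif3b (0.44), 5405495 and 4741553 of Bbs4 (-0.39 and -0.34) and 5111027 of Ift74 (-0.39).

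**Figure D4:**
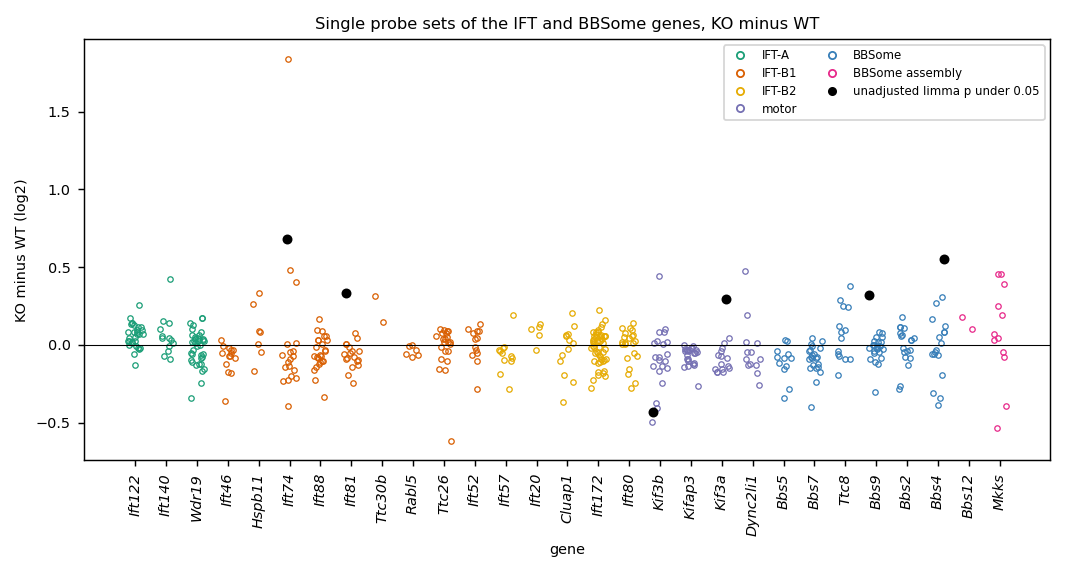
Difference between KO and WT (log2, vertical axis) of each of the 508 probe sets, by gene and coloured by class; filled black points have an unadjusted limma p under 0.05. The 6 black points lie in Ift74, Ift81, Kif3b, Kif3a, Bbs9 and Bbs4, the probe set of Ift74 at 1.84 is not among them, and 0 of the 508 passed after adjustment.

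Chromosomes 9 and 12 held all 11 genes that passed over the whole array, so members there were set apart. These were Ift46, Bbs4 and Bbs9 on chromosome 9 and Ttc8 on chromosome 12, with differences of -0.088 to 0.068. Of them 0 had an unadjusted limma p under 0.05, where 9.14% of all genes of both chromosomes did. Of their 70 probe sets 2 (2.86%) had one, against 7.23% of the probe sets of those chromosomes. The other 25 members had a median of -0.017.

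Of 22 further genes of the pathway, listed by their function with earlier results of these data known, 17 were measured and 0 passed (limma). At an unadjusted p under 0.05 there were 2 (11.8%, against 6.05% of all genes), both lower in KO. Tctex1d2, a light chain of the return dynein, stood at 10.82, 11.03 and 10.78 in WT and at 10.44, 10.64 and 10.46 in KO, a difference of -0.37 (SE 0.094, adjusted p = 0.53). All its KO arrays lay below all WT arrays. The groups did not overlap in 3 of the 17 genes (17.6%, 2 lower and 1 higher in KO), against 11.2% of all genes. The unadjusted p of Tctex1d2 stayed under 0.05 in 16 of 17 alternatives, all but the median of its probe sets. Some of these left its difference unchanged at -0.37 and are not separate checks. Lztfl1, a regulator of BBSome entry into cilia on chromosome 9, stood at 9.22, 9.25 and 9.31 in WT and at 9.20, 9.003 and 8.95 in KO (-0.21, SE 0.084, adjusted p = 0.81). Its unadjusted p stayed under 0.05 in 8 of 17 alternatives, some of which left its difference unchanged at -0.21.

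Ift27, the GTPase that pairs with Hspb11, differed by -0.25 (SE 0.11, adjusted p = 0.84), and its arrays overlapped. Wdr34, an intermediate chain of the return dynein, differed by 0.17 (SE 0.086, adjusted p = 0.86), with all KO arrays above WT. Thus 2 subunits of the same dynein had differences of opposite sign, neither past the threshold. The sixth IFT-A subunit, Ift43, lies on chromosome 12 with 1 protein-coding gene between it and Ttll5. It stood at 10.20, 10.33 and 10.26 in WT and at 10.20, 10.44 and 10.21 in KO (0.023, SE 0.088), with no shift between the groups beyond its spread.

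Markers of the cells that carry these transcripts were given the same measure. Elongating spermatid genes were lower in KO in 6 of 7, with a median of -0.095, and their mean level was 12.59 to 12.66 in WT and 12.53 to 12.61 in KO. Round spermatid genes were lower in 5 of 6 (median -0.070; 11.73 to 11.81 against 11.69 to 11.73), and spermatocyte genes in 5 of 6 (median -0.094; 10.59 to 10.68 against 10.48 to 10.68). Leydig cell genes were higher in 5 of 5 (median 0.39; 9.39 to 9.85 against 9.97 to 10.11), and macrophage genes in 3 of 4 (median 0.22; 5.36 to 5.52 against 5.64 to 5.71). The medians of the other lists were -0.12 for 5 spermatogonial genes, 0.024 for 6 of Sertoli cells, 0.046 for 4 of peritubular myoid cells, 0.23 for the 1 red cell gene, 0.053 for 3 of multiciliated epithelium and 0.019 for 5 of epididymis. Of the 52 marker genes measured, 0 passed the adjusted threshold (limma) and 6 had an unadjusted p under 0.05 (11.5%, against 6.05% of all genes). The part of such shifts in the values of the motors and the other members was not tested.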

How the data were processed

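RMA and Partek 6.5 are the tools named, per the submitters' processing notes, without their role or order. No source used here states a build for the array's annotation. The authors deposited 188590 probe sets for 6 arrays as log2 values, used with no further normalization, filter or pseudocount. RMA sets the arrays to a like distribution, which hides any shift that most genes have in common. The platform annotation gave 1 gene symbol to 179163 probe sets, which were averaged per gene; 1322 had several symbols and 8105 none. Older symbols were matched through RefSeq (GRCm38.p6), which also gave chromosomes. KO and WT were compared by lmFit and eBayes of limma 3.58.1 under R 4.3.3, with two-sided tests over all genes and over all probe sets, with Benjamini-Hochberg adjustment and 0.05 as the threshold. With 3 arrays against 3, exact permutation cannot go below a p of 0.1, so tests rest on limma's pooled spread. The fit was tested on simulated data with independent noise and planted differences larger than those of members here. That test does not show whether differences as small as theirs would be found. Members, lists and tests were chosen with earlier results of these data known. Members given for every array were the 14 with the smallest unadjusted p; probe sets were the 6, and other pathway genes the 4, with the smallest unadjusted p. Ttc30b, Ttc30a1, Ift43, Dnah5 and the other probe sets of Ift74 were added after their values were seen. The precision is limited by the number of arrays. The sequence of 1 promoter is not reported here.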

Additional observations from a re-analysis of the deposited data

How the results depend on the processing

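No member was called by limma in any of 18 alternatives (493 values of the 29 genes, smallest adjusted p = 0.71), nor was any of the other pathway genes (smallest adjusted p = 0.28). An unadjusted p under 0.05 was reached by 1 member with no moderation (Ift46) and 1 without KO 1 (Bbs12). The sign of a member's difference changed in 56 of the 493 values, all uncalled. The BBSome median was 0.026 with cyclic loess, -0.040 with the median of probe sets, -0.094 without members on chromosomes 9 and 12, and -0.039 without KO 3 to 0.012 without KO 2. Of the other pathway genes, 1 in place of 2 had an unadjusted p under 0.05 with the median of probe sets, no moderation, the quartile term, without chromosomes 9 and 12, and without WT 2, WT 3 or KO 3 (1 to 2 with an array left out), and 3 had with cyclic loess and with trended and robust moderation. With the median of probe sets that 1 gene was Ift27, which was not among the 2. Over all genes 11 were called, 5 with the median of probe sets, 2 with no moderation, 20 with trended and robust moderation and 8 to 12 with an array left out. Over all probe sets 72 were called, 3 with no moderation, 25 with a term for the 3 arrays of highest lower quartile, 125 with trended and robust moderation and 13 to 37 with an array left out; 0 belonged to members. With the replicate block 9 genes and 7 probe sets were called, and 1 other pathway gene had an unadjusted p under 0.05. Same-numbered arrays deviated with correlations of -0.17, 0.072 and 0.18, so the numbers were not taken as pairs. Members whose groups did not overlap numbered 3 to 8 with an array left out, where fewer arrays make separation easier. There were 8 without KO 3, 7 without WT 1, 6 without KO 2 and 4 without KO 1. There was 1 with the median of probe sets, quantile normalization or chromosomes 9 and 12 left out. Shares over all genes were not counted in these settings, so these numbers are not read as a result about members. Causes were not tested.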
